A study of Xenopus laevis with 4 samples.

Results

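The core planar cell polarity genes vangl1, vangl2, prickle1, prickle2, prickle3, celsr1, celsr2, dvl1, dvl2 and dvl3 were examined in skins of SP600125-treated and control Xenopus laevis embryos. A probe set, the group of probes that reads 1 transcript on an Affymetrix array, was assigned to a gene when the platform annotation gave it that gene as its single symbol. Of these 10 genes, 8 had a probe set, 14 probe sets in all among 16745 tested, while prickle2 and celsr1 were matched by none. The species is allotetraploid, and a gene's homeologs, its copies from the ancestral subgenomes, carry the suffix .L or .S. The RefSeq gene table lists 15 copies of the 10 genes by symbol, of which 10 had a probe set: vangl1.L, vangl2.L, vangl2.S, prickle1.L, prickle1.S, prickle3.L, celsr2.L, dvl1.L, dvl2.L and dvl3.L.

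The SP600125 group held 2 samples from embryos given the compound, which blocks the ATP site of JNK (c-Jun N-terminal kinase), from stage 14 until the skins were taken at stage 24. The control group held 2 samples of the same stage, labelled as receiving no treatment and with no vehicle named. Each sample pooled 20 whole skins of embryos kept at 15 °C, and the dose is labelled as 100 mM, which the values cannot check. Separate clutches for the samples of a group are not stated in the labels, so the p-values reflect only how far these samples spread, and that spread may be technical. Precision is limited by the number of arrays.

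Planar cell polarity is the alignment of cells along the plane of a tissue. The membrane protein Vangl and its partner Prickle gather on one side of each cell, Frizzled and Dishevelled (Dvl) gather on the opposite side, and the cadherin Celsr bridges neighbouring cells. In the Xenopus embryonic skin these proteins orient the beating cilia of multiciliated cells, and in deeper tissue they drive convergent extension of the neural plate and the notochord. Dishevelled can pass the signal of non-canonical Wnt ligands on to small GTPases and JNK. Most regulation of these proteins is by their position in the cell, which transcript levels do not record.

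None of the 14 core probe sets passed the test for a difference between SP600125 and control skins. With limma, p-values being adjusted by Benjamini-Hochberg across all tested probe sets, an adjusted p under 0.05 was reached by 0 core probe sets that were higher and 0 that were lower, as by 0% of the 16745 probe sets in each direction. The adjusted p was 1 for every core probe set. At an unadjusted p under 0.05, 0 of 14 passed, beside 0.699% of all probe sets higher and 0.908% lower. An exact permutation test of a single value cannot go below a two-sided p of 0.333 with 2 samples against 2. The group values of 1 core probe set did not overlap, both SP600125 arrays lying above both controls, and 0 lay below, beside 11.9% of all probe sets above and 9.25% below. The mean was lower in SP600125 skins for 9 of 14 core probe sets, beside 47.3% of all probe sets. Over the core probe sets the log2 difference, SP600125 minus control, had a median of −0.12, beside 0.01 over all. It became 0.06 when control replicate 1 was left out and 0.02 when SP600125 replicate 2 was, which unbalances the replicate numbers between the groups. Between arrays of replicate number 1 the median was −0.14, and between those of number 2 it was −0.003.

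**Figure D1:**
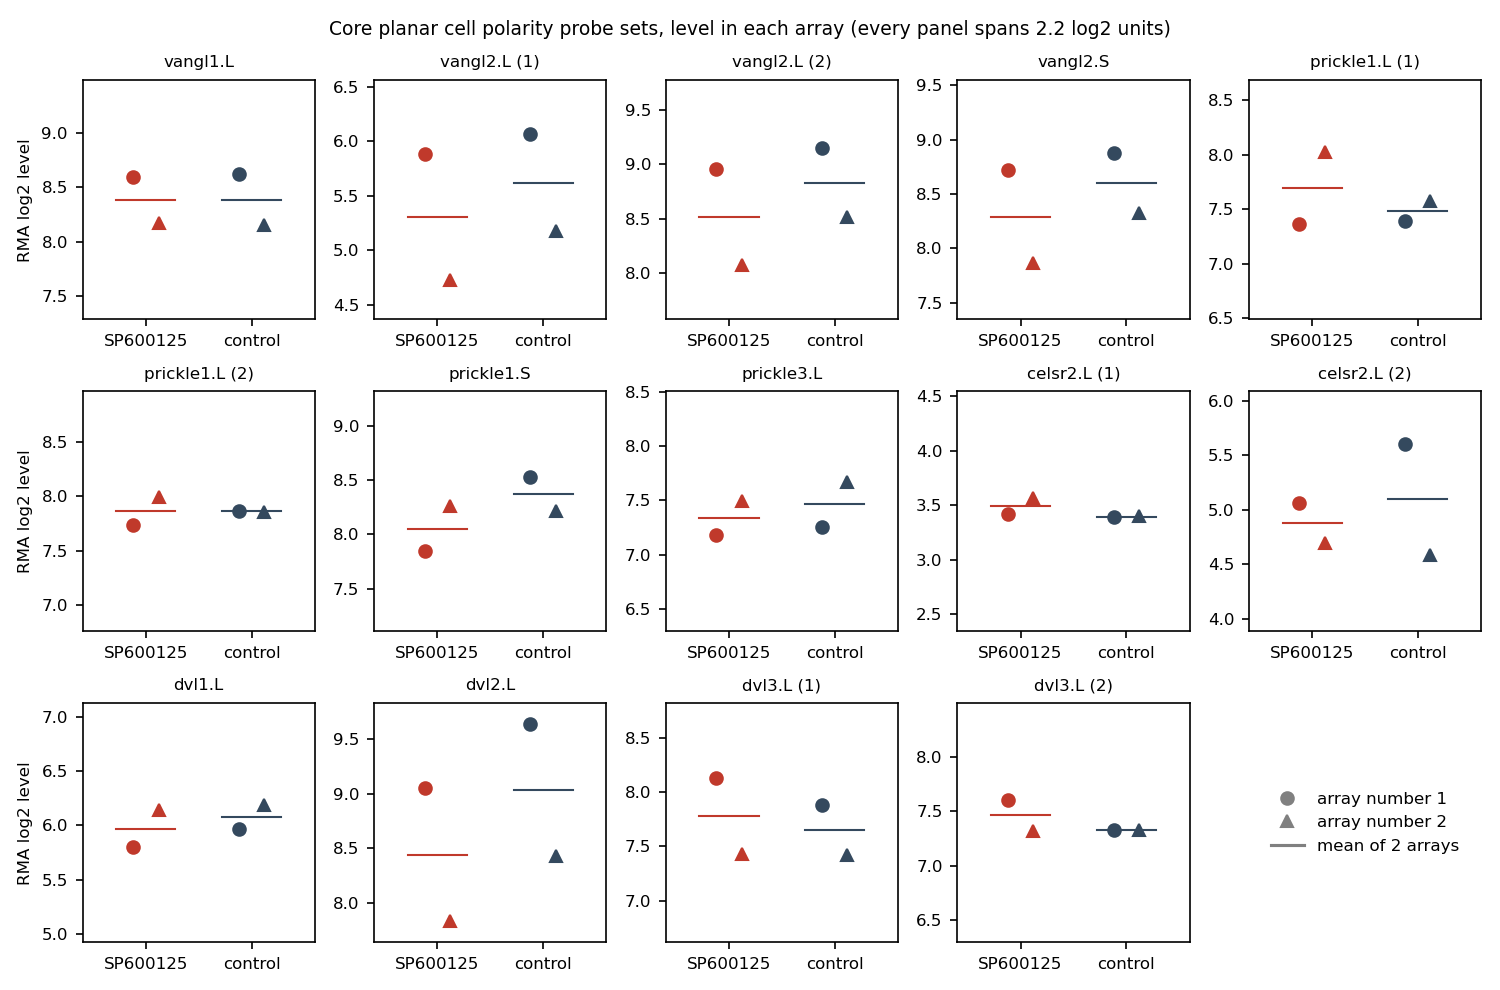
Each panel plots the RMA log2 level of 1 core probe set in the SP600125 arrays (red, left) and the control arrays (dark, right), with circles for array number 1, triangles for array number 2 and lines for group means; (1) and (2) number the probe sets of a gene in the order of their identifiers. The vangl2 and dvl2.L panels show the number 2 array far below the number 1 array in both groups, and the groups overlap in every panel but celsr2.L (1), which is dim.

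Values below are RMA log2 levels, which can be compared between arrays for 1 probe set but not between probe sets. Differences are SP600125 minus control on the log2 scale, with the SE and the 95% interval of the limma fit.

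Among the Vangl genes, which encode the multi-pass membrane proteins of the Vangl–Prickle side, vangl2 had lower means in SP600125 skins in every probe set, while vangl1 was level. The level of vangl1.L (Xl2.2505.1.S1_at) was 8.60 and 8.17 in SP600125 arrays 1 and 2, against 8.62 and 8.16 in control arrays 1 and 2. Its group means were 8.39 ± 0.30 and 8.39 ± 0.33 (SP600125 and control, SD, n = 2 each), a difference of −0.001 with an interval from −0.79 to 0.79. The number 2 array was the lower in both groups, so the spread lay within the groups.

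The best-covered gene was vangl2, with 3 probe sets for its 2 copies. The brighter vangl2.L probe set (Xl2.10610.1.S2_at) read 8.96 and 8.08 in the SP600125 arrays, against 9.15 and 8.51 in the controls. Its difference was −0.32 ± 0.42, with an interval from −1.48 to 0.85. The other vangl2.L probe set (Xl2.10610.1.S1_at) read 5.89 and 4.72 in the SP600125 arrays, against 6.06 and 5.18 in the controls. In each of these probe sets SP600125 array 2 was the lowest value and control array 1 the highest, while SP600125 array 1 stood above control array 2, so the groups overlapped. The homeolog vangl2.S (Xl2.5981.1.S1_at) read 8.72 and 7.86 in the SP600125 arrays, against 8.88 and 8.33 in the controls, the same order of arrays. Differences of the 3 vangl2 probe sets ran from −0.32 to −0.31. They read the same 4 RNA samples, and probes of one homeolog can bind transcripts of the other, so they are not separate measurements of a treatment difference. Within number 1 their differences ran from −0.19 to −0.16, and within number 2 from −0.47 to −0.44. Over the 4 Vangl probe sets the median was −0.17 within number 1 and −0.45 within number 2. Leaving out 1 array unbalances the numbers between the groups, so part of the gap between numbers enters the difference. The Vangl median of −0.31 then became 0.06 without control replicate 1 and 0.17 without SP600125 replicate 2. Leaving out control replicate 2 gave −0.61, and leaving out SP600125 replicate 1 gave −0.75.

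Prickle genes encode the cytoplasmic LIM-domain partners of Vangl, and their probe sets lay on both sides of 0. The largest difference was in prickle1.S (Xl2.7556.1.S1_a_at), which read 7.85 and 8.26 in the SP600125 arrays, against 8.53 and 8.22 in the controls. SP600125 array 1 was the lowest of the 4 values and the remaining arrays lay within 0.31 of each other, so the difference of −0.32 ± 0.26 (interval −1.03 to 0.39) came mainly from 1 array of each group. Without SP600125 replicate 1 it was −0.11, and it kept its sign with each array left out. The homeolog prickle1.L had 2 probe sets that did not repeat this value. One of them (Xl2.12111.1.S1_at) read 7.36 and 8.02 in the SP600125 arrays, against 7.39 and 7.58 in the controls, a difference of 0.21 ± 0.30. Here SP600125 array 2 stood above the 3 other arrays. The other (Xl2.12111.1.S1_s_at), of the kind whose probes are shared by several transcripts, read 7.74 and 7.99 in the SP600125 arrays, against 7.86 and 7.86 in the controls. Both controls lay between the SP600125 arrays, and the difference was 0.01 ± 0.20, turning to −0.03 when cyclic loess normalization was applied again. For prickle3.L (Xl2.19729.1.A1_at) the SP600125 arrays read 7.18 and 7.49, against 7.25 and 7.67 in the controls. Its difference was −0.12 ± 0.26, smaller than the gap between the arrays of either group. Within number 1 it was −0.07 and within number 2 −0.18. It turned to 0.08 when control replicate 2 was left out and to 0.03 when SP600125 replicate 1 was. Part of the gap between numbers enters these 2 values, so they are not a check of the sign.

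Of the Celsr genes, which encode the large multi-pass cadherins that link neighbouring cells, celsr2.L had 2 probe sets, and both were dim, averaging less than 5 log2 units. The brighter of them (Xl2.21599.1.S1_at) read 5.06 and 4.69 in the SP600125 arrays, against 5.61 and 4.58 in the controls. The controls enclosed both SP600125 values, and the difference was −0.22 ± 0.42 (interval −1.38 to 0.95), becoming 0.30 without control replicate 1. The dimmer probe set (Xl2.21599.1.A1_at) read 3.42 and 3.57 in the SP600125 arrays, against 3.39 and 3.40 in the controls. This was the core probe set whose groups did not overlap, at a difference of 0.10 ± 0.19 and with all 4 values near the low end of the arrays, whose lowest levels were 2.60 to 2.69. The groups overlapped after quantile normalization was applied again.

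Dishevelled genes encode the cytoplasmic proteins that relay Frizzled signals. The largest difference of all 14 core probe sets was in dvl2.L (Xl2.7670.1.S2_a_at), which read 9.05 and 7.83 in the SP600125 arrays, against 9.64 and 8.42 in the controls. Its means were 8.44 ± 0.86 in SP600125 skins and 9.03 ± 0.86 in control skins (SD, n = 2 each). SP600125 array 2 was the lowest value and control array 1 the highest, and in between SP600125 array 1 stood above control array 2. The number 2 array was lower than the number 1 array by 1.22 among the SP600125 arrays and by 1.21 among the controls. The difference of −0.59 ± 0.63, a fold of 0.66, was therefore smaller than the spread within each group (limma unadjusted p = 0.40, adjusted p = 1), at rank 4348 of 16745 by p. Its interval, from −2.32 to 1.14, was the widest of the core probe sets. Between the number 1 arrays alone the difference was −0.59, and between the number 2 arrays it was −0.60. Leaving out 1 array unbalances the numbers between the groups, so part of the gap between numbers enters the difference. The difference then turned to 0.01 without control replicate 1 and 0.02 without SP600125 replicate 2. Leaving out control replicate 2 or SP600125 replicate 1 gave −1.20 in each case.

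The other Dishevelled genes had small differences. Levels of dvl1.L (Xl2.20490.1.S1_at) were 5.80 and 6.14 in the SP600125 arrays, against 5.97 and 6.19 in the controls, a difference of −0.11 ± 0.23. Within number 1 this difference was −0.17 and within number 2 −0.05. It became 0.06 without SP600125 replicate 1, a value that part of the gap between numbers enters. Unlike dvl2.L, dvl1.L was higher in the number 2 array of both groups. For dvl3.L the first probe set (Xl2.24099.1.S1_at) read 8.13 and 7.43 in the SP600125 arrays, against 7.88 and 7.42 in the controls. The second (Xl2.51017.1.S1_at) read 7.60 and 7.32 in the SP600125 arrays, against 7.32 and 7.33 in the controls. In both probe sets SP600125 array 1 was the highest, and the differences of 0.13 ± 0.35 and 0.13 ± 0.21 became −0.22 and −0.01 without it.

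**Figure D2:**
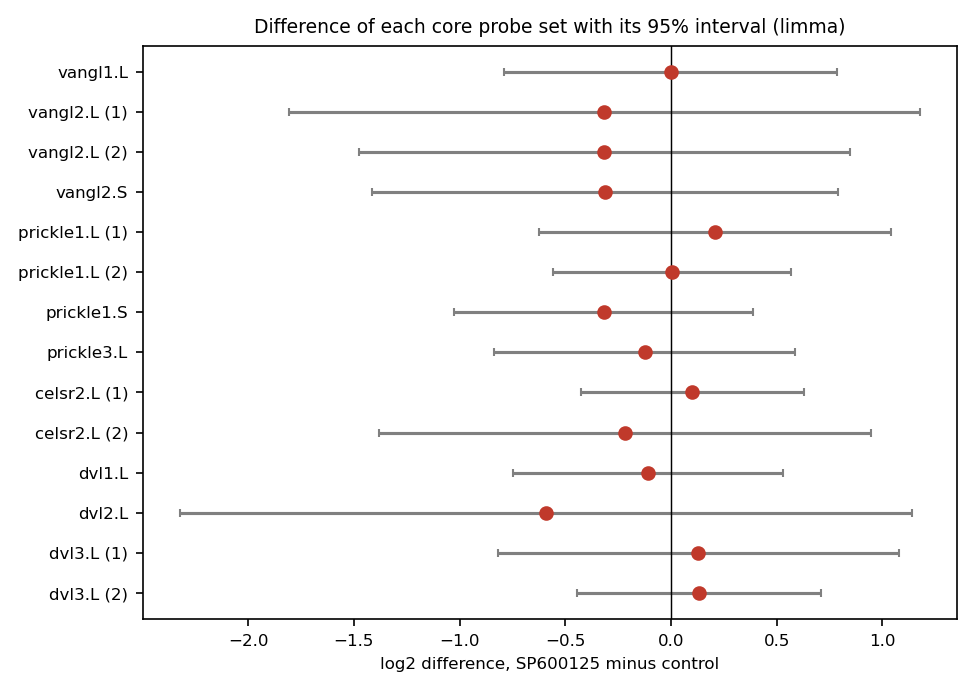
Points give the log2 difference, SP600125 minus control, of each core probe set on the horizontal axis, and bars its 95% interval from the limma fit on 2 arrays per group. Every interval includes 0 in this fit, which leaves out the replicate number, and the interval of dvl2.L is the widest, from −2.32 to 1.14.

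Intervals of the core probe sets show what the fit without the replicate number could not resolve. That fit counts the gap between array numbers as spread. The narrowest interval, of the dim celsr2.L probe set Xl2.21599.1.A1_at, ran from −0.43 to 0.63, and that of prickle1.L probe set Xl2.12111.1.S1_s_at ran from −0.56 to 0.57. For vangl2.S it ran from −1.42 to 0.79, which includes changes above 1 log2 unit downward. With the replicate number as a block, the SE fell from 0.40 to 0.18 for vangl2.S and from 0.63 to 0.16 for dvl2.L. The labels do not say that the numbers pair the samples.

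Most core probe sets differed more between the arrays numbered 1 and 2 than between SP600125 and control skins. The gap between the means of the 2 array numbers was larger than the difference between the groups in 12 of 14 core probe sets, beside 70.4% of all probe sets. The exceptions were prickle1.S and the dimmer celsr2.L probe set. All 4 Vangl probe sets and 3 of 4 Dishevelled probe sets were lower in the arrays numbered 2, whereas 0 of 4 Prickle probe sets were. In total 8 of 14 were lower, beside 43.0% of all probe sets. The largest gaps, number 2 minus number 1, were −1.22 for dvl2.L, −1.02 for the vangl2.L probe set Xl2.10610.1.S1_at and −0.76 for its other probe set. The Prickle probe sets ranged from 0.05 to 0.43. The labels do not say what a number stands for.

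**Figure D3:**
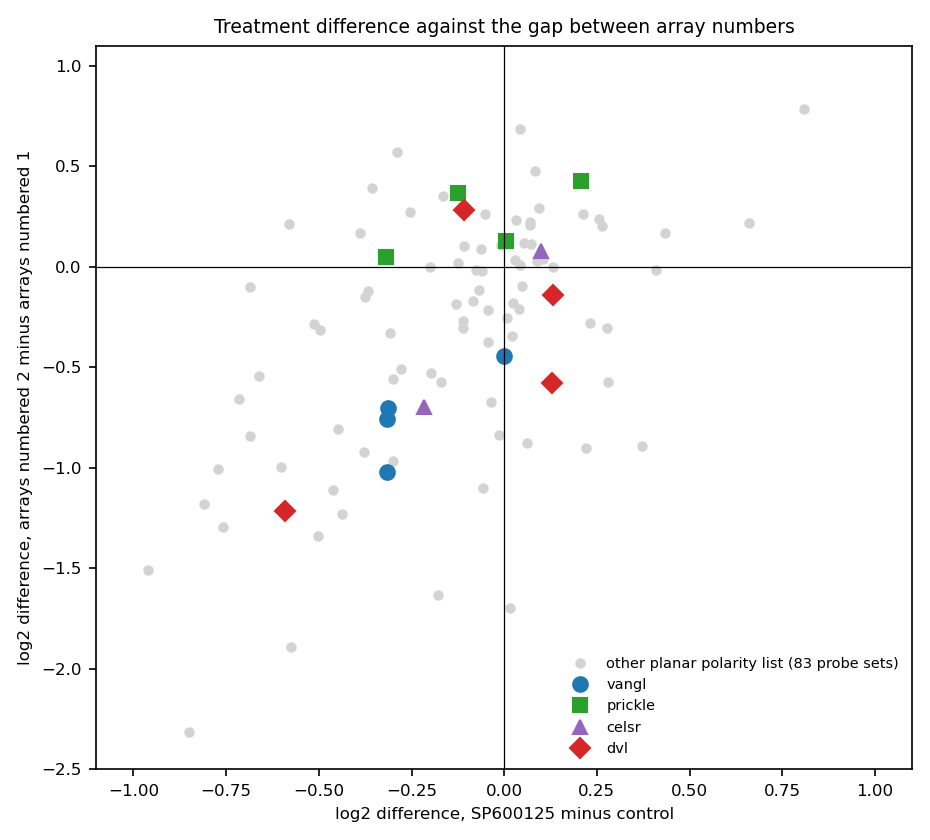
Each point is a probe set, with its log2 difference between SP600125 and control on the horizontal axis and its log2 difference between arrays numbered 2 and 1 on the vertical axis, for the core families (coloured) and the other planar polarity list (grey). The vangl2 and dvl2.L points lie low on the vertical axis, at −0.70 to −1.22, while the Prickle points lie at 0.05 to 0.43.

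Markers of epidermal and other tissues were read in the same samples. None passed the limma test after adjustment, and neither did any of the 16745 probe sets. At an unadjusted p under 0.05, 12 muscle, 6 endoderm and notochord and 2 neural probe sets were lower, beside 0.908% of all probe sets. In the other direction 3 ionocyte probe sets were higher, beside 0.699% of all. The remaining marker probe sets did not fall under 0.05. In whole skins, fewer cells of a type and less RNA per cell cannot be told apart. The summed log2 levels below compare arrays over the same probe sets and are not amounts of RNA. The brightest epidermal markers had a mean log2 level of 14.1 for the keratin krt70.S and 14.2 for the goblet cell lectin itln1.L. Outer-layer epidermal genes, 7 of 11 measured in 14 probe sets, 3 of them dim, had a median difference between the groups of 0.07. For small secretory and goblet cell genes, 4 of 6 measured in 6 probe sets, 2 of them dim, it was −0.03. Of 12 neural marker genes 12 were measured, in 25 probe sets, 4 of them dim. Their summed log2 level was 180 and 175 in the SP600125 arrays, against 202 and 176 in the controls, and their median gap of number 2 minus number 1 was −0.87. The mean was lower in SP600125 skins in 18 of the 25, with a median difference of −0.34, and the brightest of them, for the synaptic protein syt1.L, differed by 0.05. Of 19 muscle and somite genes 18 were measured, in 37 probe sets, 16 of them dim. Their summed log2 level was 192 and 209 in the SP600125 arrays, against 247 and 236 in the controls, and their median gap between array numbers was 0.10. The mean was lower in SP600125 skins in 33 of the 37, with a median difference of −1.12, and the brightest, for the muscle actin actc1.L, differed by −1.98. Endoderm and notochord genes, 9 of 12 measured in 21 probe sets, 10 of them dim, summed to 101 and 101 in the SP600125 arrays, against 117 and 112 in the controls. Their mean was lower in 18 of the 21, with a median difference of −0.56. Basal layer and basement membrane genes, 3 of 8 measured, had a median difference between the groups of −0.45 over 7 probe sets, and a median gap between array numbers of −0.57. The mean was lower in 4 of the 7, those of itgb1 and nid2, and higher in the 3 of tp63, by 0.08 to 0.18. Ionocyte genes, 10 of 11 measured in 20 probe sets, summed to 198 and 185 in the SP600125 arrays, against 190 and 185 in the controls. Their mean was lower in 7 of the 20, with a median difference of 0.27. Multiciliated cell genes, 12 of 15 measured in 23 probe sets, 8 of them dim, summed to 160 and 154 in the SP600125 arrays, against 156 and 158 in the controls, with a median difference of 0.004. The brightest of these, for the cilium protein tekt2.S, differed by 0.31. Both SP600125 arrays lay below both controls in 64.9% of muscle, 52.4% of endoderm, 28.6% of basal and 20% of neural probe sets. This share was 8.70%, 7.14%, 5% and 0% for multiciliated, outer-layer, ionocyte and secretory genes, beside 9.25% of all. Both lay above in 50% of ionocyte, 21.4% of outer-layer and 13% of multiciliated probe sets, beside 11.9% of all. For endoderm, neural and muscle genes it was 9.52%, 8% and 2.7%, and otherwise 0%. The part of these tissues in the vangl2 and dvl2.L values was not tested.

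Other genes of the pathway were read from a list of 56 symbols, of which 37 were measured, in 83 probe sets. In the same limma fit 0 of 83 passed in either direction after adjustment, and at an unadjusted p under 0.05 the count was 0 higher and 1 lower, beside 0.699% and 0.908% of all probe sets. That count of 1 was 0 without dim probe sets, beside 158 of all 12100 probe sets in that setting. The probe set counted, of wnt5b.S, is not dim and stayed in that setting, where its p was no longer under 0.05. The mean was lower in SP600125 skins for 51 of 83, and the median log2 difference was −0.07, beside 0.01 over all probe sets. It was 0.03 without SP600125 replicate 2, and with any other single array left out it lay between −0.16 and −0.02. The groups did not overlap in 7 probe sets that lay above (8.43%, beside 11.9% of all) and 11 that lay below (13.3%, beside 9.25% of all).

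Ligands and receptors had mostly lower means. All 5 probe sets of the non-canonical Wnt ligands had a lower mean, with a median of −0.38. The median was −0.83 within number 1 and 0.03 within number 2. A lower mean was found in 3 of 5 without control replicate 1 (median −0.04) and in 3 of 5 without SP600125 replicate 1 (median −0.20). It was found in 5 of 5 without control replicate 2 (median −0.71) and in 5 of 5 without SP600125 replicate 2 (median −0.55). The ligand wnt5b.S read 5.31 and 5.35 in the SP600125 arrays, against 6.14 and 5.90 in the controls. Its groups did not overlap, and it was the probe set of the list with an unadjusted p under 0.05 (limma unadjusted p = 0.027, adjusted p = 1), at a difference of −0.69 ± 0.20. The 21 probe sets for receptors and co-receptors came from 9 genes. Several read the same gene in the same samples, so they are not separate measurements. Of the 21, 16 had a lower mean, with a median of −0.50. The median was −0.55 within number 1 and −0.19 within number 2. It became −0.12 without control replicate 1 and −0.11 without SP600125 replicate 2. Leaving out control replicate 2 gave −0.74, and leaving out SP600125 replicate 1 gave −0.56. Part of the gap between numbers enters the medians with 1 array left out. The SP600125 arrays were the 2 lowest values in 5 of the 21 (23.8%, beside 9.25% of all probe sets) and the 2 highest in 1 (4.76%, beside 11.9% of all). The Wnt5a receptor ror2.L was the lower receptor with the smallest p, at 7.02 and 7.53 in the SP600125 arrays, against 7.89 and 7.81 in the controls (difference −0.58 ± 0.26). The Frizzled gene fzd6.S, known for hair follicle polarity in mice, was the higher receptor with the smallest p, at 5.31 and 5.39 in the SP600125 arrays, against 4.92 and 5.24 in the controls. Neither passed the test.

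Cytoplasmic regulators and effectors stood on both sides of 0. Of 28 regulator probe sets 15 had a lower mean, with a median of −0.02, which turned to 0.01 without control replicate 1 and 0.06 without SP600125 replicate 2. A probe set of the casein kinase gene csnk1d.S (Xl2.8285.3.S1_at), whose product can phosphorylate Dishevelled, read 10.73 and 10.70 in the SP600125 arrays, against 9.82 and 10.29 in the controls. Its groups did not overlap, and its difference of 0.66 ± 0.25 had the smallest p among the higher regulators (limma unadjusted p = 0.055, adjusted p = 1). The other csnk1d.S probe sets, Xl2.1636.1.A1_at (dim) and Xl2.8285.1.S1_a_at, differed by 0.81 ± 0.44 and 0.43 ± 0.26, also without overlap. They read the same gene in the same samples, so they are not separate measurements. All are among the 4 regulator probe sets that lay above both controls (14.3%, beside 11.9% of all probe sets). The ubiquitin ligase smurf1.L (Xl2.539.1.S2_at), which can target Prickle in mice, was dim at 3.66 and 3.50 in the SP600125 arrays, against 3.99 and 3.91 in the controls (difference −0.37 ± 0.19).

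Of 18 probe sets for small GTPases and actin regulators 10 had a lower mean, with a median of −0.05, which turned to 0.04 without control replicate 1 and 0.15 without SP600125 replicate 2. The formin daam1.S, which links Dishevelled to RhoA, differed by 0.23 ± 0.24 in probe set Xl2.25142.3.A1_at, and the RhoA exchange factor arhgef2.S differed by −0.45 ± 0.47 in probe set Xl2.46973.1.S1_at. Both differences were no larger than their SE. The other daam1.S probe sets lay on both sides of 0, at 0.21, −0.20 and −0.30. The ciliary planar polarity effectors wdpcp.L and intu.S, which act in basal body docking and cilium assembly, differed by 0.09 ± 0.23 and −0.01 ± 0.45. For the JNK branch itself, 4 of 9 probe sets had a lower mean and the median was 0.03. It turned to −0.08 without control replicate 1, to −0.09 without control replicate 2, and to −0.15 when SP600125 replicate 1 was left out. Without SP600125 replicate 2 it was 0.06. The JNK1 gene mapk8.L (Xl2.8740.1.S1_at) read 8.63 and 8.69 in the SP600125 arrays, against 8.89 and 8.83 in the controls, so that its groups did not overlap at a difference of −0.20 ± 0.19. Its dim probe set Xl2.23521.1.S1_at differed by −0.13 ± 0.22, and mapk8.S, also dim, by 0.08 ± 0.30. The upstream kinase gene map2k4.L (Xl2.29229.1.A1_at) differed by 0.25 ± 0.24, but its other probe set differed by 0.03 and the homeolog map2k4.S by −0.11. No probe set was matched to mapk9 or mapk10, and transcript levels do not measure the activity of the kinase that SP600125 inhibits.

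**Figure D4:**
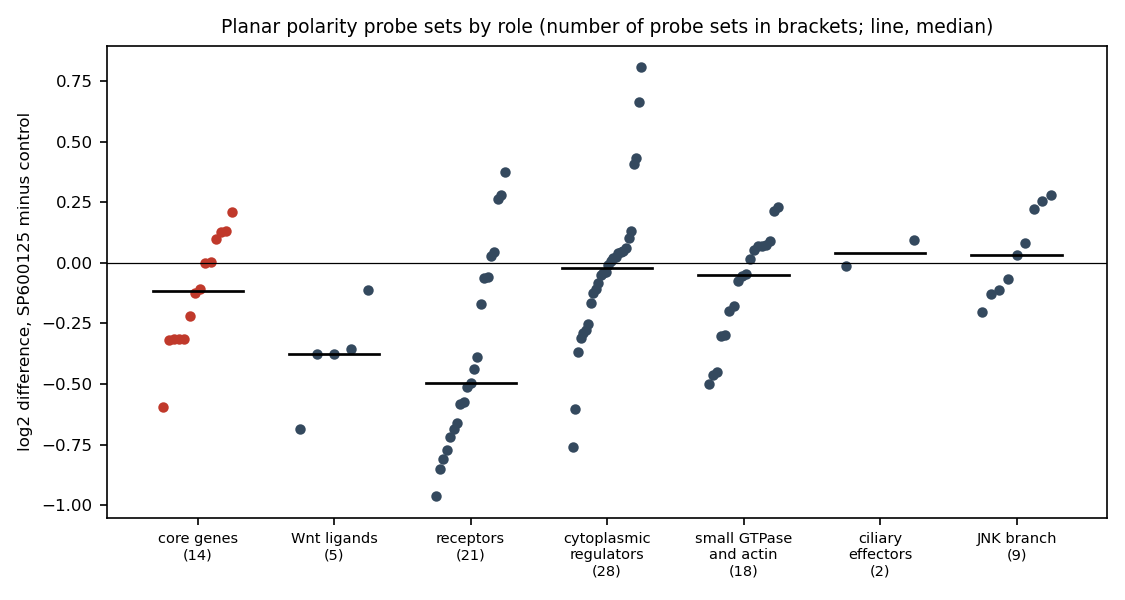
Points give the log2 difference, SP600125 minus control, of each probe set of the core genes (red) and of the other pathway genes by role (dark), and black lines the medians. Receptors have the lowest median, −0.50, and the core genes have a median of −0.12, but both change when single arrays are left out, as given above.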

How the data were processed

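Total RNA of whole embryonic skins was hybridized to Affymetrix arrays, and the authors deposited log2 values, 1 for each probe set on each array. They were made with affy and RMA, per the submitters' processing notes, which give no versions. RMA equalizes the arrays' distributions after background correction and summarises the probes of a set. A change common to most transcripts is thereby hidden, and differences of dim probe sets are compressed. For its options and the probe definition, the setting is not given in the sources used here. Of 16755 probe sets, 10 control probe sets were left out. Names came from the platform annotation held by GEO, some of it possibly outdated: 15445 probe sets had 1 symbol, 279 several (not named) and 1021 none. A RefSeq table (Xenopus_laevis_v10.1) served for names only and found the same core probe sets by entrez identifier.

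SP600125 minus control was fitted over 2 arrays per group in R 4.3.3, using limma 3.58.1 (lmFit, then eBayes, two-sided, 2 residual and 2.1 prior degrees of freedom), with Benjamini-Hochberg adjustment over all 16745 probe sets. A probe set is called dim if its mean over the 4 arrays is under 5 log2 units. All core probe sets are named. From each role group of the pathway list, the probe set with the smallest p in each direction and every mapk8 probe set are named, and from the muscle, neural and multiciliated markers the brightest. The keratin and goblet cell examples, and the further probe sets of csnk1d.S, daam1.S and map2k4, were chosen after their values were seen. The members and lists were chosen with earlier results of these data known. The script was tested on simulated data. Plots were made in Python 3.11.15 using matplotlib 3.10.9.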

Additional observations from a re-analysis of the deposited data

How the results depend on the processing

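The count of 0 core probe sets and 0 of the other pathway probe sets at an adjusted p under 0.05 stayed 0 in all alternatives run: the replicate number as a block, removal of dim probe sets, renewed normalization by cyclic loess or by quantiles, a trended and robust prior, array weights, each array left out, 1 probe set or the mean per gene copy, and naming through RefSeq. Leaving out an array in turn moved the core median between −0.17 and 0.06 and that of the other pathway genes between −0.16 and 0.03. The count of core probe sets whose groups do not overlap, 1 with all arrays, was 0 without dim probe sets and 0 after renewed quantile normalization. It was 0 with 1 probe set per gene copy and 0 with their mean. With an array left out it was 6 to 8, but 3 arrays separate more easily. No share over all probe sets is given for that setting, so those counts cannot be read as a result. The count is not touched by the block, the prior or the weights. Of 56 single differences with an array left out, 19 changed sign. Their ranges were −0.23 to 0.23 for vangl1.L, −0.90 to 0.27 and −0.76 to 0.13 for vangl2.L, −0.74 to 0.11 for vangl2.S, −0.12 to 0.54 and −0.12 to 0.13 for prickle1.L, −0.33 to 0.084 for prickle3.L, −0.73 to 0.30 for celsr2.L (Xl2.21599.1.S1_at), −0.28 to 0.058 for dvl1.L, −1.20 to 0.019 for dvl2.L, and −0.22 to 0.48 and −0.011 to 0.28 for dvl3.L. Under the other alternatives 1 of 82 changed sign, the shared prickle1.L probe set at −0.033 with cyclic loess. Leaving out 1 array unbalances the array numbers between the groups, so part of the gap between numbers enters each difference. Sign changes with an array left out are therefore not a separate check of the treatment difference. The cause of the change with cyclic loess was not tested.

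Arrays of the same number deviated together (correlation 0.585 across 16745 probe sets, which are not independent replicates), but with 2 numbers and no label for them this is a hint from the data, not a design. With the replicate block 0 of 14 core probe sets passed, the smallest adjusted p being 0.761. In that fit 1 core probe set had an unadjusted p under 0.05, dvl2.L (−0.59 ± 0.16, limma unadjusted p = 0.023, adjusted p = 0.761), which was lower by 0.59 within number 1 and by 0.60 within number 2. Over all probe sets the count at an unadjusted p under 0.05 was 1063 with the block and 269 without it, and it was 158 of 12100 without dim probe sets. Among the 83 other pathway probe sets that count was 9 with the block, beside 1063 of all 16745, and 1 without it, beside 269. Leaving out arrays for the family and role medians was chosen after seeing the data.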
